A study of Mus musculus with 36 samples.

Results

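The genes described here are 10 members of the NF-kB system: the transcription factor subunits Nfkb1, Nfkb2, Rela and Relb, the cytokines Tnf, Il1a and Il1b, and the regulators Nfkbia, Tnfaip3 and Bcl3. They were taken from a hippocampal RNA count table of 37991 genes by matching Ensembl identifiers to these symbols, and all 10 were found. The study used the CK-p25 mouse, a model of neurodegeneration in which a p25 transgene is switched on in adult animals. Hippocampus was collected 2 or 6 weeks after induction from double-transgenic CKp25 females, 3 months old, and from control littermates labelled CK. Each of the 4 groups (CK at 2 weeks, CKp25 at 2 weeks, CK at 6 weeks and CKp25 at 6 weeks) holds 3 RNA libraries, named below by genotype, time and the number the submitters gave each. The labels do not spell out which transgene the CK littermates carry. They also do not say that a library number is an animal, so the p-values below reflect how far libraries of a group differ, and part of that may be technical. In this line, as background, the Camk2a promoter of forebrain excitatory neurons drives a tetracycline-controlled activator that turns on p25, a fragment of the Cdk5 activator p35. The promoter limits the expression of p25 to such neurons, while the RNA comes from whole hippocampal tissue.

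NF-kB dimers are held in the cytoplasm by inhibitor proteins of the IkB family. When TNF, IL-1 or a Toll-like receptor fires, the IKK kinases mark the inhibitor for destruction and the canonical dimer of p50 (from Nfkb1) and RelA enters the nucleus. A slower, non-canonical arm runs through the kinase NIK (Map3k14) and the processing of the Nfkb2 product p100 to p52, which pairs with RelB. The dimers then induce their own brakes, among them IkB-alpha (Nfkbia) and the ubiquitin-editing enzyme A20 (Tnfaip3), and the cytokines that started the signal. In brain, microglia and invading myeloid cells are the best known sources of TNF and IL-1.

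The promoters of the inducible regulators are shown first, because the sequence of each holds the kB consensus that NF-kB dimers bind. RefSeq promoter windows of build GRCm38.p6, which run from 250 bases before a transcription start to 50 after it, were available for 8 of the 10 genes, in 11 windows. The kB consensus was searched on both strands, and matches that overlapped were merged. It was found for 4 genes, Bcl3, Tnfaip3, Nfkbia and Nfkb2, and in 6 of the 11 windows. Across the whole table, 8.46% of 32851 windows and 9.55% of 27025 genes held a match. The windows of Tnf, Il1a, Il1b and Rela held none, which says only that these letters are not in those windows. The sequences below are written 5′ to 3′ on the gene's strand with matches in capitals. They cover the 130 bases before the start, and for Bcl3 also the first 12 bases of the transcript.
Bcl3, chr7:19822744-19822885, minus strand: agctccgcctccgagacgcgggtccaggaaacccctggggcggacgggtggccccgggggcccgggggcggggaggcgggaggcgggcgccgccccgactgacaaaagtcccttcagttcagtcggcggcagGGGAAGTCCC
Tnfaip3, chr10:19015411-19015540, minus strand: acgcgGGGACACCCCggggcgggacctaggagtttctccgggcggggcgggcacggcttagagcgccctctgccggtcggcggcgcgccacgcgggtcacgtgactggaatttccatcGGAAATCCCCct
Nfkbia, chr12:55492648-55492777, minus strand: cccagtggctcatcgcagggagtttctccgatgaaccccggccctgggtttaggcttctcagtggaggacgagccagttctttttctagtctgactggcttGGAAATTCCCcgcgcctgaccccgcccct
Nfkb2, chr19:46304607-46304736, plus strand: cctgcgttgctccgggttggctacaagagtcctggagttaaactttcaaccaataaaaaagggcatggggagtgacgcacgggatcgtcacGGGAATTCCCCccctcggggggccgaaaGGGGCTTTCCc
In Bcl3 the match lies just inside the transcript, at bases 3 to 12 from its start. In Nfkbia it lies 29 to 20 bases before the start. Tnfaip3 holds a match ending 3 bases before the start and another beginning 125 bases before it, and its second annotated start has none. The Nfkb2 window printed is the most upstream of the 3 in the table, which need not hold every annotated start, with matches at 39 to 29 and 11 to 2 bases before the start. The other Nfkb2 windows also hold a match. They overlap and share the site at chr19:46305705-46305714, which is the only match of the most downstream window. The 6 windows with a match therefore count that site more than once. Nfkb1 and Relb had no window in the table.

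Gene-assigned counts ranged from 5029996 to 6450140 per library, so that 1 count was worth 0.146 to 0.205 CPM (the usual counts scaled to library size). No row of the table stands for the transgene. The row of Cdk5r1, the mouse gene for p35, was lower in CKp25 by edgeR's quasi-likelihood test, with a log2 fold change of -0.34 ± 0.07 (SE) at 2 weeks and -0.51 ± 0.08 at 6 weeks (adjusted p of 0.00333 and 7.37e-05). It does not check the transgene. Here and below, the SE of a log2 fold change is derived from the test statistic and is not a separate estimate. All 10 hippocampal neuron markers were detected in every group, and 3 of them at 2 weeks and 7 at 6 weeks were called lower in CKp25. All 16 microglia markers were called higher in CKp25 at both times. Their summed level was 320.7 to 343.5 CPM in CK and 1239 to 1683 CPM in CKp25 at 2 weeks, and 299.9 to 344.3 against 1505 to 2050 CPM at 6 weeks. In bulk tissue, fewer or more cells of a type and less or more RNA per cell cannot be told apart. Choroid plexus markers summed to between 18.7 and 2516 CPM and varied within every group. At 6 weeks the share of reads with several alignments also differed between genotypes, between 6.86 and 9.52% for CK and between 11.5 and 13.9% for CKp25. At 2 weeks, library CK_2wk_4520 and library CKp25_2wk_4518 stood apart in that share, at 7.15% and 6.81% against 12.2 to 14.3% in the others.

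Of the 10 genes, 8 passed the filter on low counts. Bcl3, Il1a and Nfkb2 passed it only with the help of their CKp25 libraries, since fewer than 3 CK libraries reached the minimum level. The count and median over the 8 genes therefore describe them and are no independent support. At 2 weeks 4 of these 8 were called higher in CKp25 than in CK by edgeR's quasi-likelihood test (adjusted p under 0.05 over all 14457 genes tested), and none was called lower. The 4 were Bcl3, Il1a, Nfkb2 and Nfkb1. Over all genes tested, 11.6% were called higher and 7.99% lower (19.6% in either direction). At 6 weeks 6 of the 8 were called higher, with Nfkbia and Rela added, where 18.1% of all genes were called higher and 15.2% lower (33.3% in either direction). The median log2 fold change of the 8 genes was 0.46 at 2 weeks and 0.75 at 6 weeks, and that of all genes tested was -0.01 and 0.00. Tnf and Il1b never exceeded 9 counts in a library and did not pass the filter. Counting all 10 genes, every CKp25 library lay above every CK library for 7 genes at 2 weeks and for 8 at 6 weeks. Among the genes tested, that held for 18.4% at 2 weeks and 23.6% at 6 weeks. Tnf and Il1b are not among the genes tested, so these counts too only describe the 10 genes. The effects fell into a steep group and a shallow group. Bcl3, Il1a and Nfkb2 rose by more than 2 on the log2 scale, while the called changes of Nfkb1, Nfkbia and Rela stayed under 1.

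**Figure D1:**
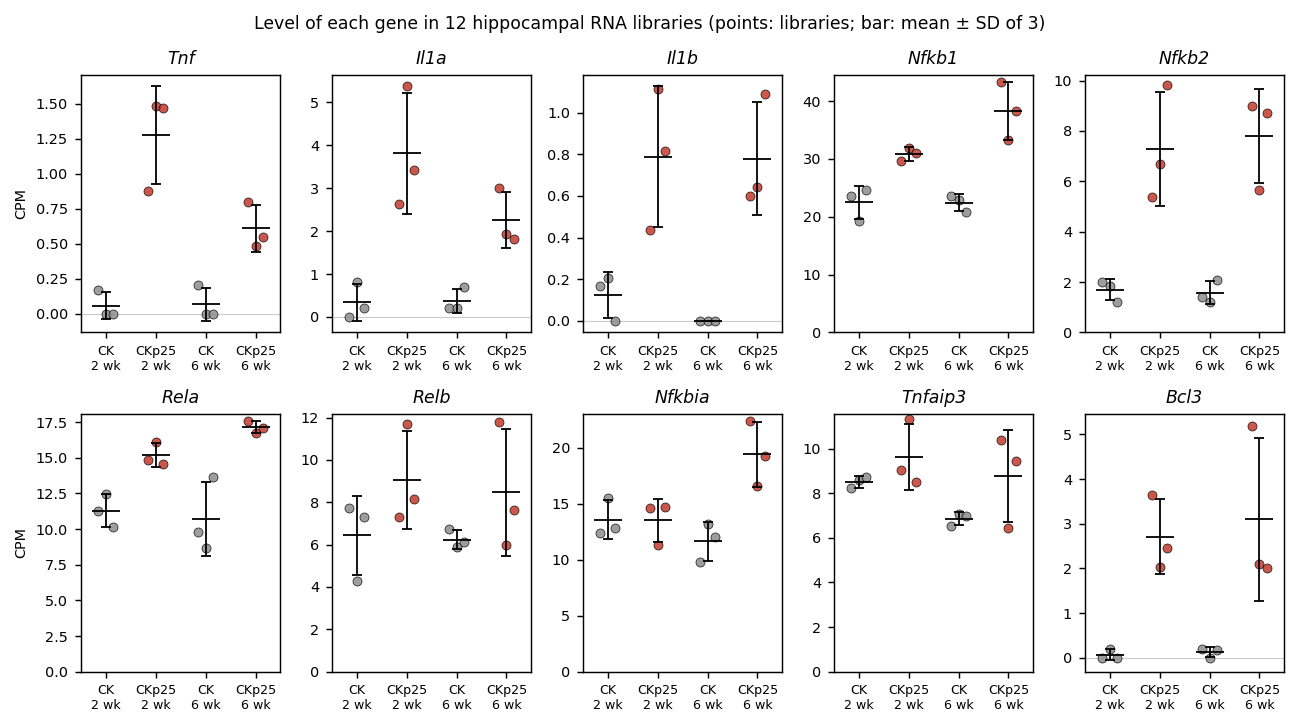
Level in CPM (vertical axis, linear) of each of the 10 genes in the 12 libraries, grey for CK and red for CKp25, with the mean and SD of 3 libraries per group. Bcl3, Il1a, Il1b and Tnf are near the floor in CK, and Nfkb2 is at 1.21 to 2.10 CPM there. These genes separate fully in CKp25, while Relb and Tnfaip3 overlap between genotypes at both times.

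The cytokines were nearly absent from control hippocampus. Tnf (ENSMUSG00000024401), which encodes tumour necrosis factor, had 1, 0 and 0 counts in the CK libraries at 2 weeks and 6, 8 and 9 counts in the CKp25 libraries. At 6 weeks it had 1, 0 and 0 counts in CK and 4, 3 and 3 in CKp25. The genotypes did not overlap at either time. The CKp25 libraries at 6 weeks all lay below those at 2 weeks, but the nearest stood at 0.800 and 0.874 CPM. That change between times was not called, and the share of all genes that separate so was not counted. The ratio of depth-scaled counts was 19.7 (95% interval 3.21 to 813, counting error only) at 2 weeks and 9.33 (1.33 to 405) at 6 weeks. With no filter on low counts, edgeR's quasi-likelihood test over 23038 genes gave Tnf a log2 fold change of 3.90 ± 1.00 (adjusted p = 0.00127) at 2 weeks. At 6 weeks the value was 2.83 ± 1.16 (adjusted p = 0.0615) and did not pass. In that unfiltered fit, 8.65% of genes at 2 weeks and 12.6% at 6 weeks were called higher. Its p-values, also used for Il1b below, follow a normal curve, as if the spread between libraries were known. They are therefore not on the footing of the filtered fit. Il1a at 2 weeks had an adjusted p of 4.53e-09 there and 0.000522 with the filter, by the same edgeR test. Rela at 2 weeks went the other way, at 0.0967 and 0.0653. Without CK_2wk_4520, the only CK library of that time with a count, the 2-week value was 5.82. The 2-week call of Tnf held in each of 8 further fits without the filter, added after the data were seen (DESeq2, limma-voom and each library of that time left out), with adjusted p from 0.00038 to 0.0275. The 6-week value passed with limma-voom (adjusted p = 0.00825) and in edgeR without library CK_6wk_3936, the only CK library with a count at that time (4.80, adjusted p = 0.0341).

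Il1a (ENSMUSG00000027399), which encodes interleukin-1 alpha, a cytokine that acts as an alarm signal of damaged cells, had 0, 4 and 1 counts in CK at 2 weeks and 1, 1 and 4 at 6 weeks. In CKp25 it had 18, 29 and 21 counts at 2 weeks and 15, 12 and 10 at 6 weeks. Every CKp25 library lay above every CK library, and within CKp25 the CPM values of the times overlapped. The mean level was 3.81 ± 1.42 CPM (SD, n = 3) in CKp25 at 2 weeks and 2.25 ± 0.65 CPM at 6 weeks, beside 0.34 ± 0.43 and 0.37 ± 0.29 CPM in CK. edgeR's quasi-likelihood test gave log2 fold changes of 3.47 ± 0.61 at 2 weeks (adjusted p = 0.000522) and 2.47 ± 0.64 at 6 weeks (adjusted p = 0.00692). The size of the 2-week change depended on single CK libraries, at 5.04 without CK_2wk_4891 and 2.82 without CK_2wk_4520, and that of the 6-week change was 3.31 without CK_6wk_4009. The 6-week call was lost when the share of reads with several alignments was added to the edgeR model (2.03, adjusted p = 0.0631).

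Il1b (ENSMUSG00000027398) encodes interleukin-1 beta, the form released after inflammasome cleavage. Its counts were 1, 1 and 0 in CK and 3, 6 and 5 in CKp25 at 2 weeks. At 6 weeks all 3 CK libraries were at 0 and the CKp25 libraries had 3, 4 and 6 counts. The genotypes did not overlap at either time, on counts of 6 or fewer. At 2 weeks the ratio was 6.01 (95% interval 1.38 to 54.5), and at 6 weeks Il1b was at least 4.04-fold higher in CKp25, against a floor of 3 counts over the CK group. Without the filter, edgeR's quasi-likelihood test called Il1b at 6 weeks (adjusted p = 0.00275) and not at 2 weeks (2.40 ± 0.99, adjusted p = 0.0883). The 6-week call held in 8 further fits, and limma-voom also called the 2-week difference (adjusted p = 0.015). Whether the effect on Il1b differed between times was tested without the filter and did not pass (edgeR adjusted p = 0.69).

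Among the subunits, Nfkb2 (ENSMUSG00000025225), the p100/p52 subunit of the non-canonical arm, changed most. It stood at 2.01, 1.84 and 1.22 CPM in the CK libraries and 5.39, 6.68 and 9.81 CPM in the CKp25 libraries at 2 weeks. The 6-week values were 1.42, 1.21 and 2.10 CPM in CK and 8.999, 5.64 and 8.73 CPM in CKp25. All CKp25 libraries lay above all CK libraries at both times. The log2 fold change was 2.08 ± 0.33 at 2 weeks, or 4.22-fold (edgeR's quasi-likelihood test, adjusted p = 0.000175), and 2.26 ± 0.33 at 6 weeks (adjusted p = 6.1e-05). Both calls held in all 21 alternative fits.

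Nfkb1 (ENSMUSG00000028163), the p105/p50 subunit of the canonical dimer, rose by a smaller factor. At 2 weeks it was at 23.6, 19.2 and 24.6 CPM in CK and 29.6, 31.9 and 31.1 CPM in CKp25. Its 6-week levels were 23.6, 22.9 and 20.8 CPM in CK and 43.4, 33.3 and 38.4 CPM in CKp25. The genotypes did not overlap at either time. All CKp25 libraries at 6 weeks lay above those at 2 weeks, but that change was not called. The share of all genes that separate so between times was not counted. edgeR's quasi-likelihood test gave 0.45 ± 0.12 at 2 weeks (adjusted p = 0.0126) and 0.77 ± 0.12 at 6 weeks (adjusted p = 9.69e-05). Without library CK_2wk_4891, the lowest of the CK libraries at 2 weeks, the 2-week value was 0.35 and no longer passed (adjusted p = 0.0773).

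Rela (ENSMUSG00000024927), which encodes the transactivating partner of p50, was at 11.2, 12.5 and 10.2 CPM in CK and 14.9, 16.1 and 14.5 CPM in CKp25 at 2 weeks. Levels at 6 weeks were 9.76, 8.70 and 13.6 CPM in CK and 17.6, 16.7 and 17.1 CPM in CKp25. All CKp25 libraries lay above all CK libraries at both times, and library CK_6wk_4009 was the highest of the controls. The 6-week change of 0.67 ± 0.16 passed edgeR's quasi-likelihood test (adjusted p = 0.00317). The 2-week value of 0.42 ± 0.15 did not (adjusted p = 0.0653). It passed in the fit without library CK_6wk_4009, a 6-week library that belongs to neither group compared (0.42, adjusted p = 0.0324).

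Relb (ENSMUSG00000002983), the partner of p52, ranged from 4.30 to 7.71 CPM in CK and from 7.29 to 11.7 CPM in CKp25 at 2 weeks. By 6 weeks the range was from 5.87 to 6.71 CPM in CK and from 5.96 to 11.8 CPM in CKp25. The genotypes overlapped at both times. The log2 fold changes were 0.47 ± 0.27 at 2 weeks (edgeR's quasi-likelihood test, adjusted p = 0.257) and 0.42 ± 0.28 at 6 weeks (adjusted p = 0.26). Rel, the remaining subunit of the family and not among the 10 genes, was not called either, at 0.49 ± 0.39 and 0.57 ± 0.40.

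Ratios of one gene's counts to another's within a library do not depend on depth, and gene length cancels when the same ratio is compared between groups. Nfkb2 had 4.96 to 9.57 counts per 100 counts of Nfkb1 in CK and 18.2 to 31.6 in CKp25 at 2 weeks. At 6 weeks the ranges were 5.31 to 10.1 and 16.9 to 22.7. These ranges did not overlap between genotypes at either time. Rela per 100 Nfkb1 counts overlapped, with CK between 41.3 and 64.9 and CKp25 between 46.8 and 50.6 at 2 weeks, and 38.1 to 65.5 and 40.6 to 50.2 at 6 weeks. Relb had 233 to 600 counts per 100 Nfkb2 counts in CK and 83.3 to 175 in CKp25 at 2 weeks. The 6-week ranges were 292 to 483 and 87.5 to 131, again without overlap. With 3 libraries a group these ratios were not tested. They restate the changes of the single genes given above and are no independent support. The share of all gene pairs that separate so was not counted.

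Bcl3 (ENSMUSG00000053175), an atypical IkB protein that works in the nucleus with p50 and p52 dimers, had the largest fold change of the tested members. It had 0, 1 and 0 counts in CK and 25, 11 and 15 counts in CKp25 at 2 weeks. At 6 weeks it had 1, 0 and 1 counts in CK and 26, 13 and 11 counts in CKp25. Detection was close to a switch, with no CK library above 1 count and no CKp25 library under 11. The ratio of depth-scaled counts was 43.8 (95% interval 7.51 to 1763) at 2 weeks and 23.3 (6.13 to 198) at 6 weeks. The fitted log2 fold changes were 5.01 ± 0.83 (edgeR's quasi-likelihood test, adjusted p = 0.000322) and 4.34 ± 0.74 (adjusted p = 0.000254), and both calls held in all 21 alternative fits. The size at 2 weeks moved to 6.95 without CK_2wk_4891, the only CK library of that time with a count, to 4.33 with limma-voom and to 4.19 without both CK_2wk_4520 and CKp25_2wk_4518. At 6 weeks it moved to 5.04 with the share of multiply aligned reads in the model.

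Nfkbia (ENSMUSG00000021025), the gene of the inhibitor IkB-alpha, was at 12.4, 15.5 and 12.8 CPM in CK and 14.6, 11.3 and 14.7 CPM in CKp25 at 2 weeks. At 6 weeks it was at 9.76, 13.2 and 12.05 CPM in CK and 22.4, 16.6 and 19.3 CPM in CKp25. The groups overlapped at 2 weeks and were separate at 6 weeks. The log2 fold change was 0.01 ± 0.16 at 2 weeks (edgeR's quasi-likelihood test, adjusted p = 0.988) and 0.73 ± 0.16 at 6 weeks (adjusted p = 0.00219). At 2 weeks the ratio of depth-scaled counts was 1.01, with a 95% counting interval of 0.84 to 1.22. At 2 weeks Nfkbia had 52.1 to 80.9 counts per 100 counts of Nfkb1 in CK and 35.5 to 49.3 in CKp25. At 6 weeks the CKp25 range of 49.8 to 51.6 lay within the CK range of 41.4 to 58.0.

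Tnfaip3 (ENSMUSG00000019850), the gene of A20, was at 8.22 to 8.74 CPM in CK and 8.50 to 11.3 CPM in CKp25 at 2 weeks. At 6 weeks it was at 6.51 to 7.08 CPM in CK and 6.44 to 10.4 CPM in CKp25. The groups overlapped at both times, at 6 weeks through library CKp25_6wk_3940 alone. The log2 fold changes were 0.17 ± 0.19 (edgeR's quasi-likelihood test, adjusted p = 0.597) and 0.34 ± 0.20 (adjusted p = 0.211). Without library CKp25_6wk_3940 the 6-week value was 0.52 and just passed (edgeR adjusted p = 0.0495).

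**Figure D2:**
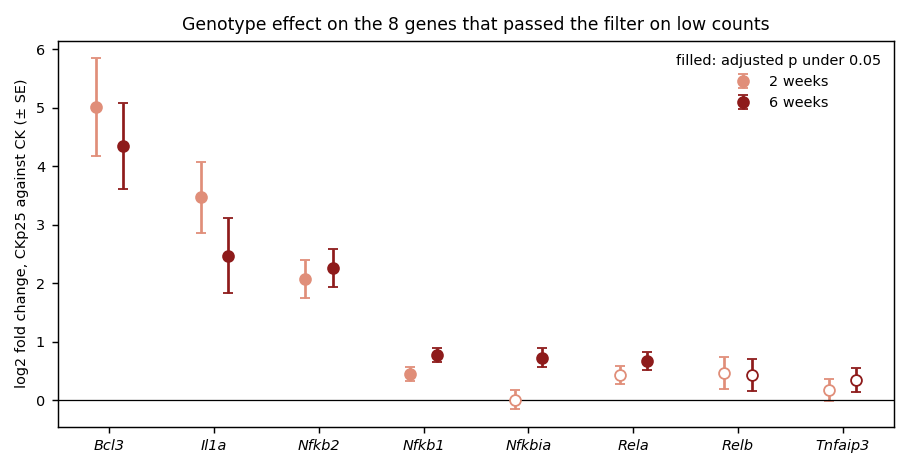
Log2 fold change of CKp25 against CK (vertical axis, with a standard error derived from the test statistic) for the 8 genes that passed the filter, light for 2 weeks and dark for 6 weeks. Filled points passed an adjusted p of 0.05, which Nfkbia and Rela do at 6 weeks alone and Relb and Tnfaip3 at neither time.

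Whether the genotype effect changed between 2 and 6 weeks was tested as an interaction. edgeR's quasi-likelihood test called 0 of the 8 genes, where 0.374% of all genes tested were called higher and 0.18% lower (0.553% in either direction). Nfkbia was the only member at an unadjusted p under 0.05 (edgeR, difference 0.72 ± 0.23, adjusted p = 0.151). DESeq2 and limma-voom also called none of the 8. The passing of Nfkbia and Rela at 6 weeks and not at 2 weeks is therefore not shown to be a difference between times. Il1a and Bcl3 had differences in the other direction with wide errors, -0.9995 ± 1.07 (edgeR adjusted p = 0.735) and -0.67 ± 1.5 (adjusted p = 0.891). That of Nfkb1 was 0.32 ± 0.17 (adjusted p = 0.41). Without CK_2wk_4520, CK_2wk_4891 or CK_6wk_4009 the Il1a difference was -0.36, -2.57 or -0.15.

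Within CKp25, Nfkbia was the 1 member called between 6 and 2 weeks. It was higher at 6 weeks by 0.51 ± 0.15 on the log2 scale (edgeR's quasi-likelihood test, adjusted p = 0.0421), in a comparison where 6.12% of all genes were called higher and 5.53% lower (11.7% in either direction). Its 3 CKp25 libraries at 6 weeks all lay above the 3 at 2 weeks, at 16.6 to 22.4 against 11.3 to 14.7 CPM. How many of all genes separate so between times was not counted. The call did not hold with DESeq2 (0.50, adjusted p = 0.101) or, in edgeR, without library CK_2wk_4893, CKp25_2wk_4518, CKp25_2wk_4890, CKp25_2wk_4894, CKp25_6wk_3937 or CKp25_6wk_4008 taken singly, where adjusted p ran up to 0.2. Nfkb1 was at 0.31 ± 0.11 (adjusted p = 0.0851) and passed without library CKp25_6wk_3940 (0.39, adjusted p = 0.035). Il1a was at -0.75 ± 0.41 (adjusted p = 0.276) and Tnf, without the filter, at -1.04 ± 0.65 (edgeR adjusted p = 0.422). Between 6 and 2 weeks in CK, edgeR called 0 of the 14457 genes, 560 of which had an unadjusted p under 0.05, and DESeq2 and limma-voom also called 0. No member was among the 560, and every member had an adjusted p of 1. The control level of these genes thus gave no called change with time, on wide errors for the rare ones (0.25 ± 0.95 for Il1a and 0.81 ± 1.53 for Bcl3).

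Since all microglia markers were higher in CKp25, the level of each gene was also set against their summed level in the same library. Per 1000 CPM of the 16 markers, Bcl3 had 0 to 0.596 CPM in CK and 1.35 to 2.94 CPM in CKp25 at 2 weeks, a 9.65-fold difference of means. The 6-week values were 0 to 0.678 and 1.33 to 2.54 CPM, a 4.43-fold difference. Tnf at 2 weeks was likewise above CK in every CKp25 library, at 0.706 to 0.981 against 0 to 0.523 CPM per 1000, and overlapped CK at 6 weeks. Il1b at 6 weeks was above CK libraries that were all at 0. On this scale, 2.15% of all genes tested at 2 weeks and 1.19% at 6 weeks lay above CK in every CKp25 library. Tnf and Il1b are not among the genes tested, and Bcl3 passed the filter only with the help of its CKp25 libraries. That share is therefore no support for their separation. The CK values of Tnf and Bcl3 rest on 1 or 2 counts in all, so the folds carry the wide counting intervals given above.

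Nfkb2 kept close to the microglia markers. It stood at 3.74 to 6.27 CPM per 1000 marker CPM in CK and 4.35 to 5.83 in CKp25 at 2 weeks. At 6 weeks the ranges were 4.04 to 6.09 and 3.73 to 5.80, and the ratios of means were 0.949 and 0.936. Il1a also overlapped at both times, with ratios of 2.57 and 1.17. Nfkb1, Rela, Relb, Nfkbia and Tnfaip3 lay below CK in every CKp25 library at both times, with ratios of means between 0.227 and 0.32. That was the case for 93.6% and 94.1% of all genes tested, so those positions are near the background. With a shorter list of 5 microglia markers the ratios of means moved, but each of these 5 genes stayed lower in CKp25. For Nfkb2 the log2 ratios moved from -0.075 and -0.095 to 0.27 and 0.26 at 2 and 6 weeks, so their sign depends on the markers used. This scaling was not tested, and the part of microglia number in the differences of level was not tested.

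**Figure D3:**
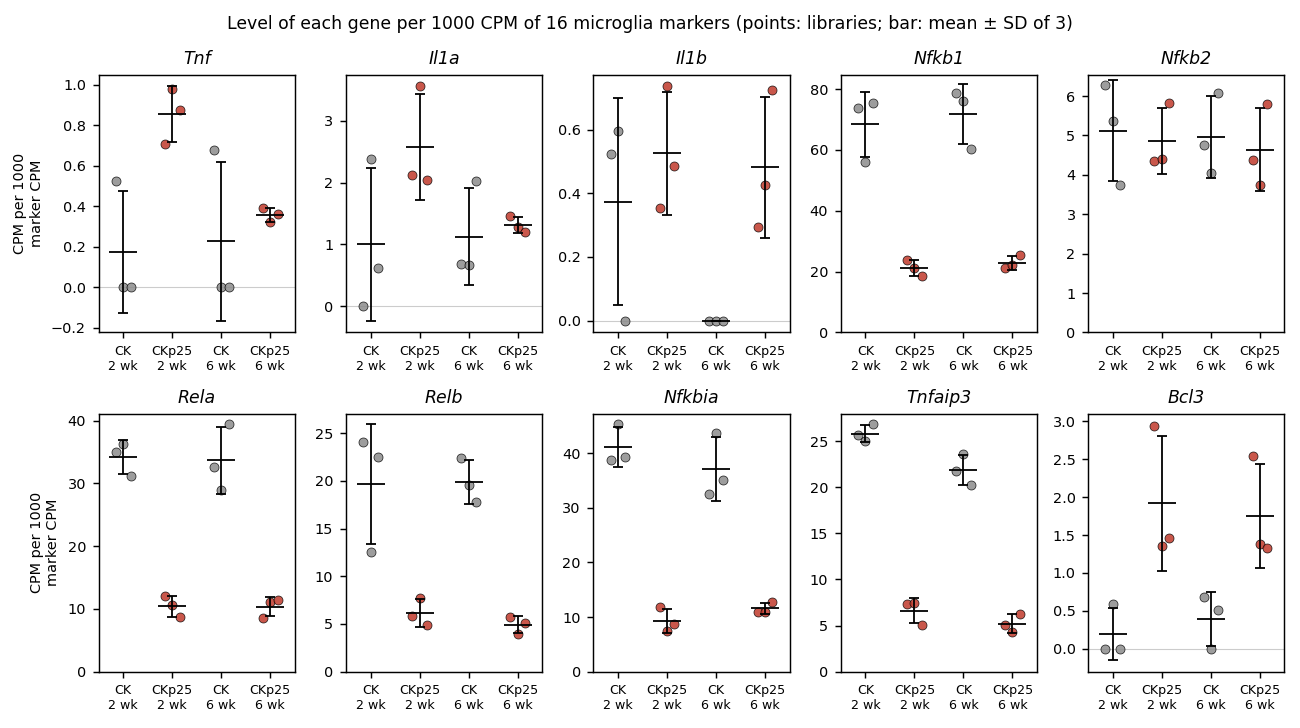
Level of each of the 10 genes in CPM per 1000 CPM of the 16 microglia markers (vertical axis, linear) in the 12 libraries, grey for CK and red for CKp25, with the mean and SD of 3 libraries per group. Nfkb2 overlaps between genotypes at both times, Bcl3 lies above CK in all CKp25 libraries, and Nfkb1, Rela, Relb, Nfkbia and Tnfaip3 lie below.

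Markers of other cell types were also read. None of 9 neutrophil markers passed the filter, with summed levels of 0 to 2.61 CPM, and Ly6g, Retnlg and Elane were at 0 in all 12 libraries. None of 12 T and NK cell markers passed, but their sums were higher in every CKp25 library, at 2.29 to 6.60 CPM beside 0.405 to 1.84 CPM in CK. At 6 weeks 8 of the 12 were at 0 in CK and 1, Cd3e, in CKp25. Of 9 monocyte markers 2 passed, of which 1 was called higher at 2 weeks and both at 6 weeks. Monocyte sums ran from 43.0 to 50.8 CPM in CK and from 52.9 to 65.0 CPM in CKp25. Vcan had the highest mean level of this list, so the sums need not follow its rarer genes. Plac8 had 0 counts in CK and 33 in CKp25 at 2 weeks and 0 and 6 at 6 weeks, Ly6c2 had 0 and 6 and then 1 and 13, and Chil3 was at 0 in all CKp25 libraries. Of 7 B cell markers 2 passed, and 1 and then 2 were called higher. B cell sums were 5.52 to 9.56 CPM in CK and 12.4 to 19.8 CPM in CKp25 at 2 weeks, and 5.49 to 12.9 against 25.8 to 35.8 CPM at 6 weeks, with Ms4a1 at 0 in all 12 libraries. Border macrophage markers were called higher for 0 of 4 tested genes at 2 weeks and 4 of 4 at 6 weeks, with CKp25 sums of 12.1 to 19.8 and 22.2 to 41.8 CPM beside 6.88 to 17.3 CPM in CK. Astrocyte markers were called higher for 5 of 8 genes at 2 weeks and 8 of 8 at 6 weeks. Endothelial, oligodendrocyte and pericyte markers had no call at 2 weeks and were called higher for 8 of 8, 7 of 8 and 4 of 6 tested genes at 6 weeks. Over all genes tested, 11.6% were called higher at 2 weeks and 18.1% at 6 weeks. Of the tested markers, 3 of 4 for border macrophages (Cd163, F13a1 and Lyve1) passed the filter only with the help of their CKp25 libraries. The same held for the monocyte marker Ms4a4c and the B cell marker Cd22, so the counts describe these lists. The highest gene was Ighm in the B cell list and Mrc1 in the border macrophage list. The part of these cells in the members' values was not tested.

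The neighbouring genes of the pathway were read from 7 lists, which some members also belong to, and each count is over the list's tested genes by edgeR's quasi-likelihood test. Some of the tested genes passed the filter only with the help of their CKp25 libraries, which holds for 6.97% of all genes tested, so the counts and medians describe the lists. In the list of IkB proteins and IKK kinases, which also holds Map3k14, Tbk1 and Nkap, 3 of 13 genes were called higher at 2 weeks and 4 at 6 weeks. Of the 13, 1 was called lower at 6 weeks, and the list medians were 0.16 and 0.34. Without the members Bcl3 and Nfkbia, 2 of 11 were called higher at each time, beside 11.6% of all genes at 2 weeks and 18.1% at 6 weeks. So few genes cannot be told from that background. Bcl3, Nfkbie, Ikbke and Nfkbid passed the filter through CKp25. Map3k14, the NIK kinase that starts the non-canonical arm, rose from 3.88 ± 1.49 CPM (SD, n = 3) in CK to 11.2 ± 0.92 CPM in CKp25 at 2 weeks (adjusted p = 0.000477). At 6 weeks it stood at 4.93 ± 1.31 and 9.47 ± 2.08 CPM (edgeR adjusted p = 0.0112), a call lost without library CK_6wk_3936 (0.74, adjusted p = 0.0587) or library CKp25_6wk_4008 (0.79, adjusted p = 0.0512). Nfkbie, the gene of IkB-epsilon, rose from 0.90 ± 0.28 to 3.55 ± 1.08 CPM at 2 weeks (edgeR adjusted p = 0.00529), and its 6-week value of 1.15 ± 0.43 just missed the threshold (adjusted p = 0.0506). Ikbke, the gene of IKK-epsilon, rose from 1.40 ± 0.33 to 4.67 ± 1.22 CPM at 6 weeks (edgeR adjusted p = 0.00302). Its 6-week log2 fold change of 1.70 was 2.46 with the share of multiply aligned reads in the model. The core kinase genes Chuk, Ikbkb and Ikbkg were between -0.12 and 0.26 on the log2 scale at both times and not called. Tbk1, a kinase related to IKK, was lower at 6 weeks by edgeR (-0.31 ± 0.10, adjusted p = 0.021), a call lost without library CK_6wk_3938, CK_6wk_4009 or CKp25_6wk_3937 and with the share of multiply aligned reads in the model (-0.18, adjusted p = 0.258).

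The list of TNF and IL-1 receptors and adaptors holds 27 genes, among them the receptors of other ligands Tnfrsf11a, Ltbr, Cd40 and Il1rl1. Of these 27, 21 were tested, 8 were called higher at 2 weeks and 9 at 6 weeks, and 1 was called lower at 6 weeks. These are 38.1% and 42.9% called higher, beside 11.6% and 18.1% of all genes, and the list medians were 0.27 and 0.39. Of the 21, 2 (Irak4 and Traf5) passed the filter through CKp25. Tnfrsf11a and Ltbr were among the genes called higher at both times. Tnfrsf1a rose from 3.66 ± 0.56 to 16.3 ± 1.33 CPM at 2 weeks and from 3.34 ± 1.04 to 18.5 ± 4.31 CPM at 6 weeks (edgeR adjusted p of 1.87e-06 and 5.69e-07). Tnfrsf1b rose from 3.28 ± 0.69 to 10.2 ± 1.81 CPM and from 2.53 ± 0.80 to 13.7 ± 2.46 CPM (edgeR adjusted p of 0.000136 and 2.38e-06). Irak4, the kinase that links IL-1 and Toll-like receptors to the pathway, rose 3.46-fold and 4.21-fold. The IL-1 receptor chain Il1r1 was not called, at 0.08 ± 0.23 and 0.09 ± 0.25. Its partner Il1rap was at -0.23 ± 0.10 at 2 weeks (edgeR adjusted p = 0.122) and was called lower at 6 weeks (-0.39 ± 0.10, adjusted p = 0.0072); both receptor chains were named after their values were seen.

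The ubiquitin-editing brakes, the list that holds Tnfaip3, had medians near 0. Of 11 genes 9 were tested, none was called higher at either time, and 1 was called lower at 2 weeks and 2 at 6 weeks. Over all genes 11.6% and 18.1% were called higher and 7.99% and 15.2% lower, so the number of falls is near the background. The medians were -0.01 and -0.05. In the same edgeR test without library CKp25_6wk_3940, or with the share of multiply aligned reads in the model, 1 gene of the list was called higher at 6 weeks. Cyld, a deubiquitinase that trims the chains on which IKK is activated, fell from 151 ± 7.77 to 109 ± 4.14 CPM at 6 weeks (edgeR adjusted p = 0.000104). Rnf11, a member of the A20 complex, stood at 156 ± 8.06 and 128 ± 11.7 CPM at 2 weeks (edgeR adjusted p = 0.0156). At 6 weeks Rnf11 stood at 154 ± 4.23 and 129 ± 8.63 CPM (adjusted p = 0.0189). The Rnf11 call was lost in 4 of the leave-one-out fits at 2 weeks and in 3 at 6 weeks, with adjusted p up to 0.0945. Neuron markers moved the same way, with 5 of 8 called lower at 2 weeks and 6 of 8 at 6 weeks, and their part in these falls was not tested.

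Other NF-kB targets were called higher for 16 of 25 tested genes at 2 weeks and 18 of 25 at 6 weeks, with 2 called lower at each time and medians of 1.05 and 1.48. These are 64% and 72% called higher, beside 11.6% and 18.1% of all genes. Of the 25, 5 passed the filter through CKp25: Ccl2, Ccl5, Cxcl10, Bcl2a1b and Tlr2. The chemokine genes led. Cxcl10, which draws T cells and is also induced by interferon, had 2 counts in the 3 CK libraries and 1086 in the 3 CKp25 libraries at 2 weeks, a ratio of 466 (95% interval 129 to 3854). At 6 weeks Cxcl10 had 1 and 415 counts, a ratio of 387 (69.1 to 15326). Ccl2, the monocyte attractant, had 0 counts in CK at both times and 76 and 22 in CKp25, at least 21.8-fold and at least 6.84-fold higher against the floor of 3 counts over the group. Ccl5 had 0 and 41 counts at 2 weeks, at least 11.7-fold higher, and 1 and 30 at 6 weeks, a ratio of 27.98 (4.65 to 1142). All of these chemokine differences passed edgeR's test, with adjusted p from 6.06e-09 to 0.00783. Their fitted sizes rest on a CK level of at most 2 counts and moved by over 1.5 times with single libraries: the 6-week log2 value of Ccl5 was 6.35 without CK_6wk_3936, and that of Ccl2 was 5.21 without CKp25_6wk_4008. For Cxcl10 the values were 11.3 without CK_2wk_4520 at 2 weeks and 10.1 without CK_6wk_3936 at 6 weeks. Sod2 and Ehd1, named after their values were seen, were the targets called lower at both times.

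Of 34 other cytokine genes, 33 were matched to a row and 14 were tested. Of these, 7 were called higher at 2 weeks and 8 at 6 weeks, 1 was called lower at 6 weeks, and the medians were 1.04 and 1.44. These are 50% and 57.1% called higher, beside 11.6% and 18.1% of all genes. Of the 14, 4 passed the filter through CKp25: Il15, Lif, Tgfb1 and Tnfsf8. Tnfsf8, the ligand of CD30, had 0 counts in CK and 37 in CKp25 at 2 weeks, at least 10.6-fold higher, and 1 and 62 counts at 6 weeks, a ratio of 57.8 (95% interval 10.003 to 2321). The fitted 6-week value of Tnfsf8, 5.44, was 7.39 without CK_6wk_3938. Lif, a cytokine of the IL-6 family, had 3 and 70 counts at 2 weeks, a ratio of 20.03 (6.58 to 99.5). Grn, the growth factor progranulin, rose from 36.7 ± 2.21 to 193 ± 16.3 CPM at 2 weeks (edgeR adjusted p = 1.13e-10). Spp1 (osteopontin) rose from 4.31 ± 1.45 to 37.96 ± 14.2 CPM and Tgfb1 from 0.79 ± 0.44 to 3.99 ± 0.36 CPM at 6 weeks (edgeR adjusted p of 1.26e-05 and 0.000746), and the Spp1 value of 3.11 was 3.96 with the share of multiply aligned reads in the model. Ifng, Il4, Il10 and Il17a, cytokines best known from lymphocytes, had 0 counts in all 12 libraries. Il6 had 0 counts in CK and 3 in CKp25 at 2 weeks, and 1 in each genotype at 6 weeks; these 5 genes were chosen after their values were seen.

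The last list holds genes linked to the processing and release of IL-1 and TNF. It also holds Il1rn, Timp3 and Sigirr, which do not cleave or release these cytokines, so the list is not of that machinery alone. Of 13 genes 10 were tested, 7 were called higher at 2 weeks and 9 at 6 weeks, none was called lower, and the medians were 1.38 and 1.47. These are 70% and 90% called higher, beside 11.6% and 18.1% of all genes. Of the 10, 4 passed the filter through CKp25: Gsdmd, Nlrp3, Pycard and Rhbdf2. Pycard, the adaptor ASC of inflammasomes, rose from 0.96 ± 0.23 to 7.50 ± 2.35 CPM at 2 weeks and from 0.56 ± 0.27 to 8.35 ± 2.27 CPM at 6 weeks (edgeR adjusted p of 1.71e-05 and 2.49e-06). Nlrp3, the sensor whose inflammasome activates caspase-1, rose 7.20-fold at 2 weeks (edgeR adjusted p = 0.000885) and 3.91-fold at 6 weeks (adjusted p = 0.00323), and the 6-week call was lost with the share of multiply aligned reads in the model (1.20, adjusted p = 0.123). Without CK_6wk_4009 the 6-week log2 value of Nlrp3 was 2.69. Rhbdf2, the partner of the TNF-shedding enzyme ADAM17, rose from 0.91 ± 0.56 to 3.54 ± 1.09 CPM at 2 weeks (edgeR adjusted p = 0.00387). Its log2 value of 1.89 was 2.5 without CK_2wk_4520. Gsdmd, the pore through which IL-1 leaves cells, rose from 1.55 ± 0.24 to 6.51 ± 1.26 CPM at 6 weeks (edgeR adjusted p = 4.6e-05). All 16 microglia markers moved the same way as these lists, with medians of 2.17 and 2.15.

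**Figure D4:**
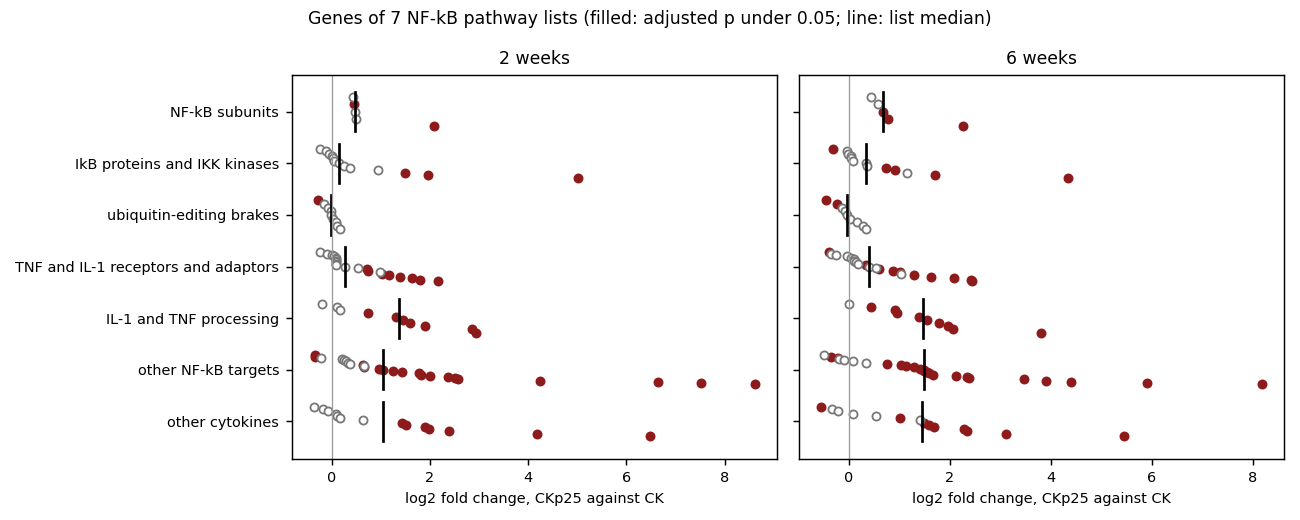
Log2 fold change of CKp25 against CK (horizontal axis) of every tested gene in the 7 lists at 2 weeks (left) and 6 weeks (right), with filled points for an adjusted p under 0.05 and a bar at the list median. Targets, cytokines and processing genes spread to the right, with medians between 1.04 and 1.48, while the ubiquitin-editing brakes stay around 0, with medians of -0.01 and -0.05.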

How the data were processed

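Total RNA of whole hippocampus was prepared with a stranded kit that removes ribosomal RNA, per the labels' protocols. The deposited values are raw read counts per Ensembl gene. Bowtie, Picard, HTSeq 0.6.1, MACS2, NCBIM37 and mm9 are named in the submitters' processing notes, and no source used here says how strand was treated, so that reads of overlapping antisense genes may be included. Of the table's reads, 38.1 to 46.9% lay in no gene, 6.81 to 14.3% had several alignments, 6.13 to 11.1% were not aligned and at most 0.165% were ambiguous; the 5 entries for these and for low quality were left out. Symbols were matched for 86.6% of 37991 genes.

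edgeR 4.0.16 (R 4.3.3) fitted 4 group means to 12 libraries with filterByExpr (minimum count 10), TMM scaling and the quasi-likelihood test, on 8 residual degrees of freedom. P-values were adjusted by the Benjamini-Hochberg method over all genes tested, and the threshold was 0.05. The SE of an edgeR log2 fold change is its absolute value divided by the square root of the test's F statistic. It need not show the wide and lopsided error of genes with few CK counts. CPM are counts scaled by the TMM-adjusted library size. Intervals of count ratios are exact at the 95% level and cover counting error only. DESeq2 1.42.0, limma 3.58.1 (voom), other scaling, filters, covariates and left-out libraries were tried as alternatives. The fits were tested on simulated counts.

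The 10 genes and all lists were chosen with earlier results of these data known. Beside the 10 genes, the text names from each pathway list the 3 called genes with the largest absolute log2 fold change at each time, and for each tested member the 3 genes with the highest Pearson r. Rel and the genes Chuk, Ikbkb and Ikbkg were named after their values were seen. The peak lists of the 32 chromatin samples were not used here.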

Additional observations from a re-analysis of the deposited data

Results flagged for a closer look

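Among the pathway genes outside the 10 members, the genotype effect differed between the times for 2 genes by edgeR's quasi-likelihood test of the interaction. Sdc4, a cell surface proteoglycan among the NF-kB targets, was higher in CKp25 by 0.63 on the log2 scale at 2 weeks and by 1.48 at 6 weeks, a difference of 0.85 (adjusted p = 0.0397). Its mean level was 69.2 ± 3.96 CPM (SD, n = 3) in CK and 107 ± 10.5 CPM in CKp25 at 2 weeks, and 74.0 ± 14.1 and 206 ± 30.7 CPM at 6 weeks. Grn was higher by 2.39 at 2 weeks and by 1.68 at 6 weeks, a difference of -0.71 (adjusted p = 0.0296). Its mean level in CKp25 was 193 ± 16.3 CPM at 2 weeks and 116 ± 12.3 CPM at 6 weeks, beside 36.7 ± 2.21 and 36.1 ± 3.28 CPM in CK.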

How the results depend on the processing

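The number of members called higher ranged from 3 to 5 over 21 alternative fits at 2 weeks (4 in the reported fit) and from 5 to 7 at 6 weeks (6 in the reported fit). The difference between times called 0 of them in every alternative. For Nfkbia at 2 weeks the log2 fold change of 0.01 turned negative, uncalled, in 8 fits: -0.0024 with no filter, -0.12 without both CK_2wk_4520 and CKp25_2wk_4518, -0.0031 with the share of multiply aligned reads in the model, -0.016 with the choroid plexus level in it, and between -0.0616 and -0.038 without library CK_2wk_4520, CK_2wk_4893, CKp25_2wk_4518 or CKp25_2wk_4894. Over all 12 left-out libraries it ran from -0.0616 to 0.111, and the cause was not tested. Between 6 and 2 weeks in CKp25 the count of 1 member was 0 with DESeq2 and 0 without both CK_2wk_4520 and CKp25_2wk_4518, and 0 to 2 when single libraries were left out. The NF-kB subunits called at 2 weeks ranged from 1 to 3 (2 in the reported fit) and the ubiquitin-editing brakes called higher at 6 weeks from 0 to 1 when single libraries were left out, with 1 also under the covariate of multiply aligned reads; the causes were not tested. Scaled to 5 microglia markers instead of 16, the log2 ratios were -1.36 and -1.29 for Nfkb1 at 2 and 6 weeks (-1.69 and -1.65 with 16), -1.38 and -1.34 for Rela, -1.63 and -1.71 for Tnfaip3, and at 6 weeks -1.32 for Nfkbia and -1.65 for Relb. Those of Nfkb2 changed sign, to 0.27 and 0.26 at 2 and 6 weeks (-0.075 and -0.095 with 16). Over all genes, 2833 were called at 2 weeks and 1806 without library CKp25_2wk_4894. The interaction called 80 genes and 24 to 693 over the alternatives. Between 6 and 2 weeks, 1685 genes in CKp25 became 974 without library CKp25_2wk_4894 and 839 without library CKp25_6wk_3937. In CK, 0 became 130 with no filter and 26 without both CK_2wk_4520 and CKp25_2wk_4518. No paired analysis was run, because the labels do not say which CKp25 and CK libraries belong together. A block for the leading digits of the numbers, whose meaning the labels do not give, changed no member's call in the genotype effects or their difference. The comparisons of 6 and 2 weeks within a genotype were not fitted with that block. Depth limits Tnf, Il1b and the CK level of Bcl3, which rest on 9 or fewer counts per library.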

Other observations

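The genes whose log2 CPM followed each member most closely over the 12 libraries differed from member to member. These correlations describe libraries that share genotype groups and are given with no test. For Bcl3 they were Aldh1l1 (Pearson r = 0.991), Pld4 (0.986) and the row ENSMUSG00000074000, which has no symbol here (0.984). For Nfkb2 they were Milr1 (0.984), Ncf1 (0.983) and Ifi207 (0.982). For Nfkb1 they were Crispld2 (0.978), Ednrb (0.976) and Cttnbp2nl (0.971). Rela was followed by Pyroxd2 (0.959), Casp12 (0.956) and Fam129b (0.948), and Il1a by Col15a1 (0.964), Iqgap3 (0.955) and Zfp869 (0.954). Nfkbia was followed by Ets1 (0.952), Rnf130 (0.934) and Itpr3 (0.919). The values were lower for the uncalled members, with Tpm3-rs7 (0.945), Svbp (0.902) and Chst3 (0.878) for Relb and Nfxl1 (0.900), Ccdc90b (0.849) and Ppp4r1 (0.840) for Tnfaip3. As background, Ncf1 and Pld4 are known from phagocytes and Aldh1l1 from astrocytes.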
